A study of Rattus norvegicus with 48 samples.

Results

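The lineage difference in the motor cortex of rats that were not stressed was measured as Non-Stressed Vinclozolin (NSt-Vin) against Non-Stressed Control (NSt-Con). Its members are the 5 usable arrays of these groups, 2 NSt-Vin and 3 NSt-Con, of 48 deposited arrays in 4 brain areas, and they were chosen by their labels. The second NSt-Vin array was left out because it equals the mean of the first and the third on every probe set. NSt-Vin animals were F3-generation Sprague-Dawley males whose F0 ancestors received 100 mg/kg/day of vinclozolin by intraperitoneal injection from embryonic day 8 to 14 of gestation, and NSt-Con animals descended from females given the DMSO vehicle. No F3 rat was itself exposed, and NSt rats were not restrained. Every rat shared its cage with a rat of the other lineage, as a dyad, until brains were taken at 120 days. An array holds RNA from 2 mm punches of primary and secondary motor cortex pooled from 4 rats, so an array is a pool and not an animal. The stressed groups, Stressed Vinclozolin (St-Vin) and Stressed Control (St-Con), 3 arrays each, were restrained 6 hours a day for 21 days in adolescence. They supplied the estimate of spread together with the members, so that 11 arrays entered the fit.

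Vinclozolin is a dicarboximide fungicide and an endocrine disruptor, and exposure of gestating rats during gonadal sex determination is the classical model of epigenetic transgenerational inheritance. The F3 generation is the earliest in which neither the animal nor the germ cell it came from was exposed in the womb. Motor cortex is a layered sheet of glutamatergic projection neurons and GABAergic interneurons, and its immediate early genes respond within minutes to neuronal activity.

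Layer markers did not set the motor cortex punches apart from the other areas. All 15 markers of striatal medium spiny neurons were highest in another area, 12 of them in the basolateral amygdala, and all 12 hippocampal markers were also highest elsewhere. Of 15 markers of cortical layers 14 were highest in another area, 8 of them in CA3, and 1 in motor cortex, the layer 5 transcription factor Fezf2, with a mean log2 signal of 8.56 there against 7.82 in amygdala, 8.32 in CA1 and 8.46 in CA3. Array medians lay between 6.76 and 6.805 on the log2 scale, and any 2 motor cortex arrays correlated at 0.989 or more across probe sets. All 3 NSt-Con arrays and NSt-Vin 1 were scanned on day 1. NSt-Vin 3 and the stressed arrays were scanned on day 2.

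No probe set passed the test between NSt-Vin and NSt-Con. limma called 0 of 27342 probe sets, or 0%, at an adjusted p of 0.05 (Benjamini-Hochberg over all probe sets), and the smallest adjusted p was 0.145. At an unadjusted p of 0.05, 692 probe sets were higher in NSt-Vin (2.53%) and 862 lower (3.15%). Differences were small against their error: the median SE was 0.077 on the log2 scale, 50 probe sets differed by more than 0.5 and 4 by more than 1. Over all probe sets 48.5% were higher in NSt-Vin, and the median difference was -0.0017. Both NSt-Vin arrays lay above all NSt-Con arrays at 9.23% of probe sets and below all of them at 11.1%. The pools hold different animals, and these p-values measure the spread between pools of 4 within all motor cortex groups, the stressed ones included. Cage mates were of opposite lineages, and the main fit did not use this pairing.

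Since no gene passed, the genes below are described by their values and ranked by p, and none is a call. Igfbp6, a secreted binding protein with a preference for insulin-like growth factor 2, had log2 signals of 7.98 and 7.90 in NSt-Vin, against 8.81, 8.5 and 8.56 in NSt-Con. The groups did not overlap, and the difference was -0.68 ± 0.14 (SE; limma adjusted p = 0.686), or 0.623 of the NSt-Con level. Within dyad group 1 the NSt-Vin pool was 0.83 lower than its cage mates, and within dyad group 3 it was 0.66 lower.

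Igfbp6 was lower in the vinclozolin lineage under stress too. It had 7.72, 7.30 and 7.14 in St-Vin, against 7.86, 8.07 and 7.96 in St-Con, again without overlap, and a difference of -0.58 ± 0.13 (limma adjusted p = 0.826). The interaction, the lineage difference without stress minus that under stress, was -0.11. Without stress the differences elsewhere were -0.20 ± 0.087 in amygdala, -0.18 ± 0.15 in CA1 and -0.077 ± 0.075 in CA3. The stressed pools are other animals, while the other areas came from the same pools.

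Nqo2, a quinone reductase that uses dihydronicotinamide riboside, had the smallest p of the lower genes. It had 6.84 and 7.12 in NSt-Vin, against 7.56, 7.58 and 7.43 in NSt-Con, a difference of -0.54 ± 0.098 (limma adjusted p = 0.579). Under stress it was at -0.21 ± 0.087. Larp7, which binds the 7SK small nuclear RNA, followed at -0.45 ± 0.099, with 6.81 and 6.90 in NSt-Vin against 7.37, 7.37 and 7.18 in NSt-Con.

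Npas4, an activity-dependent transcription factor of neurons, had 8.94 and 9.19 in NSt-Vin, against 8.35, 8.56 and 8.79 in NSt-Con. Both NSt-Vin pools lay above all NSt-Con pools, by 0.50 ± 0.18 on the mean (limma adjusted p = 0.808). Within the dyads the difference was 0.59 in group 1 and 0.40 in group 3. Under stress it had 8.86, 9.36 and 9.13 in St-Vin, against 8.40, 8.83 and 8.26 in St-Con, a difference of 0.62 ± 0.16 and again no overlap.

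Of these 4 genes, Igfbp6, Nqo2 and Npas4 had an unadjusted p below 0.05 with the same sign both without and under stress, and their promoter windows are printed for that reason. They are RefSeq windows of build GRCr8, 250 bases before to 50 after the annotated start, read 5′ to 3′ on the gene's strand. Igfbp6 is at chr7:135154669-135154968 on the plus strand, Nqo2 at chr17:31143613-31143912 on the minus strand and Npas4 at chr1:211716053-211716352 on the minus strand. Capitals mark AGAACA on either strand (TGTTCT), the half-site hexamer of the androgen and glucocorticoid receptors.
Igfbp6: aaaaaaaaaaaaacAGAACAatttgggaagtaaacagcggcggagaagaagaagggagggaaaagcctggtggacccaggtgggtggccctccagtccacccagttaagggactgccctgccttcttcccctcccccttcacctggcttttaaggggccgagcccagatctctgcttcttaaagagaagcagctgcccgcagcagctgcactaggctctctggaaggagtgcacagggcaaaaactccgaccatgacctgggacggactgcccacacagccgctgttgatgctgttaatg
Nqo2: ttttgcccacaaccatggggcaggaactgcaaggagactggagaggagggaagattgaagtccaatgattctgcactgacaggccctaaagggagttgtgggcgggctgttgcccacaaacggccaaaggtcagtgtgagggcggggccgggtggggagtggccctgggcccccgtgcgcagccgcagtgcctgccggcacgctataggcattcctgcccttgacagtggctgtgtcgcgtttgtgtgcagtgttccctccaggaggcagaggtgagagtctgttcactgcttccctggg
Npas4: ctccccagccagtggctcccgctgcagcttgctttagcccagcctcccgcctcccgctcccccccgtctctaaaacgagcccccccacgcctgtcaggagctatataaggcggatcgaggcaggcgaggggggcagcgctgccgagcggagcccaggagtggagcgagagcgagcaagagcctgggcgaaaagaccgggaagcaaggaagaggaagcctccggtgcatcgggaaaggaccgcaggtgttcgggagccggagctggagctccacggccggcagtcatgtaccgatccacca
AGAACA, searched on both strands, is in 20.7% of 33469 windows of this length. Igfbp6 has 1 copy, which starts 236 bases before the annotated start, and the other two have none. The full cAMP response element TGACGTCA, which reads the same on both strands, is in 1.83% of windows and in 0 of these 3. Of the 32 immediate early genes measured, 23 have a window, and 4 of them hold TGACGTCA (Dusp1, Ier2, Jund and Maff). AGAACA is in 3 of the 23 (Bdnf, Fosl1 and Ier5). These are matches of letters and not sites.

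**Figure D1:**
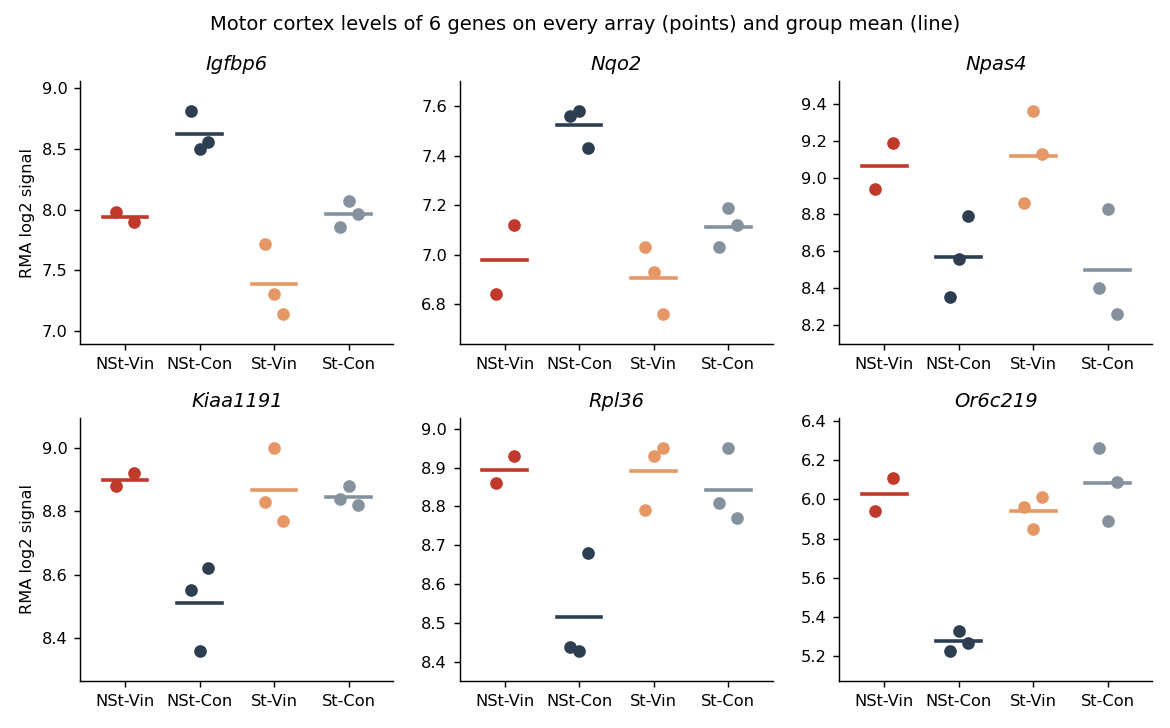
RMA log2 signal of 6 genes (vertical axis) on every motor cortex array, by group (horizontal axis); points are arrays and lines are group means. Igfbp6 and Nqo2 are lower and Npas4, Kiaa1191, Rpl36 and Or6c219 higher in both NSt-Vin arrays than in all 3 NSt-Con arrays, and for Or6c219 the NSt-Con arrays (5.23 to 5.33) lie below all other arrays.

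Among genes at or above the median level of 6.78, the 12 with the smallest p that were higher in NSt-Vin were led by Kiaa1191. It had 8.88 and 8.92 in NSt-Vin, against 8.55, 8.36 and 8.62 in NSt-Con, a difference of 0.39 ± 0.084 (limma adjusted p = 0.698). Rpl36, a protein of the large ribosomal subunit, had 8.86 and 8.93 in NSt-Vin, against 8.44, 8.43 and 8.68 in NSt-Con, a difference of 0.38 ± 0.087. All 10 probe sets named Rpl36 were higher, by 0.24 to 0.45. They include a pair with identical values, and signal from near-identical copies cannot be separated.

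Of the other 10, Ndufa1, a subunit of complex I, had 8.66 and 8.57 in NSt-Vin, against 8.38, 8.28 and 8.37 in NSt-Con (0.27 ± 0.074). Chchd6, a component of the mitochondrial contact site complex, differed by 0.30 ± 0.082 and Chchd2l3 by 0.38 ± 0.090. Utp3, a small-subunit processome protein, differed by 0.27 ± 0.063 and Bop1, needed for large-subunit maturation, by 0.20 ± 0.054. The remainder were the chemokine Ccl27 (0.29 ± 0.068), the N-terminal methyltransferase Ntmt1 (0.26 ± 0.064), the oxygen-sensing prolyl hydroxylase Egln2 (0.29 ± 0.075), the NAD-dependent deacylase Sirt6 (0.23 ± 0.062) and the tetraspanin Tspan17 (0.35 ± 0.097, or 0.21 without NSt-Vin 1).

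The 12 lower genes held, beside Nqo2, Igfbp6 and Larp7, Tmem237, a protein of the ciliary transition zone (-0.25 ± 0.060), and Wdpcp, a planar polarity effector (-0.35 ± 0.091, or -0.21 without NSt-Vin 1). Mrpl1 of the mitochondrial ribosome was at -0.23 ± 0.060, Pafah1b3, a catalytic subunit of brain platelet-activating factor acetylhydrolase, at -0.28 ± 0.075, and Commd8, a COMM domain protein, at -0.27 ± 0.065. Tmem81 (-0.26 ± 0.058), Ttc36 (-0.33 ± 0.081), Samd12 (-0.28 ± 0.075) and the olfactory receptor Or4p20b (-0.30 ± 0.079) completed them. Adjusted p-values of the 24 genes lay between 0.579 and 0.731 (limma).

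For most of these genes the NSt-Con arrays, not the NSt-Vin arrays, stood outside the rest of motor cortex. In 17 of the 24, all 3 NSt-Con arrays lay beyond the range of the 8 other arrays, which hold NSt-Vin and both stressed groups, against 5.85% of all probe sets. In 4 of the 24, both NSt-Vin arrays lay beyond the 9 other arrays, against 0.896% of all probe sets: Ccl27, Chchd2l3, Ndufa1 and Or4p20b. The genes were picked on the difference between these groups, so the counts describe them and are no test. NSt-Con was scanned on day 1 and the stressed groups on day 2, and of NSt-Vin 1 array was scanned on each day; the part of the scan day was not tested.

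Under stress the same 24 genes did not share a direction. Of them 14 had the sign of the non-stressed difference in St-Vin against St-Con, and 2 of those had an unadjusted p below 0.05, Igfbp6 and Nqo2. Samd12 had an unadjusted p below 0.05 in the opposite direction, at 0.21 ± 0.067. Without stress in the other areas 12 of 24 kept the sign in amygdala, 13 in CA1 and 13 in CA3. The interaction had an unadjusted p below 0.05 for 22 of the 24, which were chosen on values that enter it. Over all probe sets the interaction called 0 of 27342, or 0% (limma, smallest adjusted p 0.490, 1534 at an unadjusted p of 0.05), and St-Vin against St-Con called 0 as well (1652 at an unadjusted p of 0.05).

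**Figure D2:**
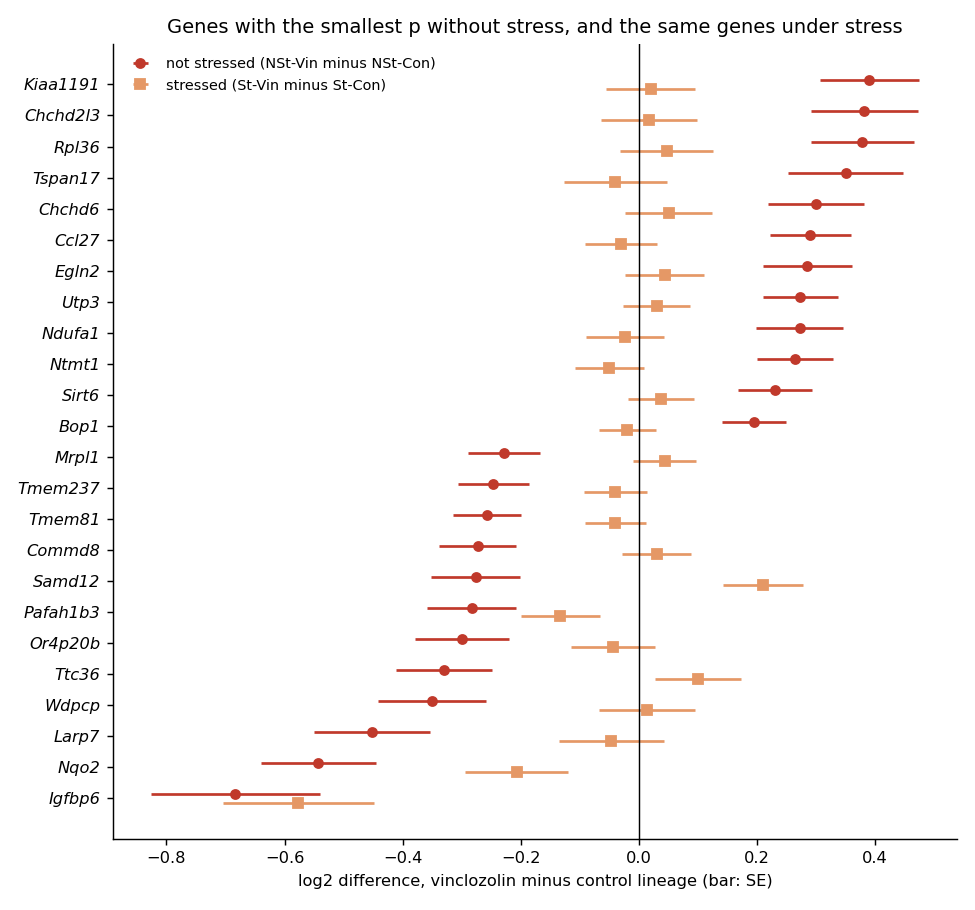
Log2 difference between the vinclozolin and the control lineage (horizontal axis, bars are SE) of the 24 genes with the smallest p at or above the median level, for rats not stressed (circles) and stressed (squares). Away from Igfbp6 (-0.68 and -0.58) and Nqo2 (-0.54 and -0.21), most squares lie near 0.

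At any level, the smallest p belonged to Or6c219, a gene of the olfactory receptor family with a low signal. It had 5.94 and 6.11 in NSt-Vin, against 5.23, 5.33 and 5.27 in NSt-Con, a difference of 0.75 ± 0.097 (limma adjusted p = 0.145). Under stress it was at -0.14 ± 0.087, and the interaction of 0.89 had an unadjusted p of 1.79e-05 (limma adjusted p = 0.490). Ly6i, of the Ly6 family, differed by 0.32 ± 0.058 without stress and by -0.13 ± 0.051 under stress, and Pth, parathyroid hormone, by 0.28 ± 0.055 and -0.043 ± 0.050. Akr1d1, a steroid 5-beta-reductase, was at -0.36 ± 0.070 without stress and 0.037 ± 0.063 under stress. The smallest interaction p-values on the negative side were those of Fabp7, the brain fatty acid-binding protein of astrocytes (-0.18 ± 0.081 and 0.35 ± 0.073), Samd12 (-0.28 and 0.21) and the ABC transporter Abca8a (-0.092 ± 0.067 and 0.33 ± 0.060).

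The chemosensory receptors as a family did not follow Or6c219. Of 1280 measured olfactory, vomeronasal and taste receptors 572 were higher in NSt-Vin (44.7%, against 38.3% in their quintile of level, given further on), 41 were higher and 58 lower at an unadjusted p of 0.05, or 3.2% and 4.53% against 2.53% and 3.15% of all probe sets, and the median difference was -0.010. Or14a257b differed by 0.43 ± 0.091 and Or4c12 by -0.31 ± 0.072.

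The lineage difference depended on the level of the gene, which bears on every list below. Across quintiles of 14329 genes by mean level, the median difference was -0.013, -0.022, -0.0050, 0.023 and 0.038 from the lowest to the highest, and 41.4%, 38.3%, 47.1%, 60.7% and 68.3% of genes were higher in NSt-Vin. Without stress this trend rested on NSt-Vin 1. In the highest quintile the median was -0.0033 with 46.2% higher without NSt-Vin 1, and 0.083 with 76.7% higher without NSt-Vin 3. After cyclic loess normalization, an alternative added after seeing this trend, it was 0.011 with 54.8% higher. Under stress, for St-Vin minus St-Con, the median difference also rose with level, from -0.013 in the lowest quintile to 0.023 in the highest. Of genes 41%, 46%, 50.8%, 59.4% and 62.9% were higher in St-Vin, from the lowest quintile to the highest. The share of the quintile in which a list's median level falls is therefore given beside the list's own share. Members of a list can lie in other quintiles, so this share is no match gene by gene.

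**Figure D3:**
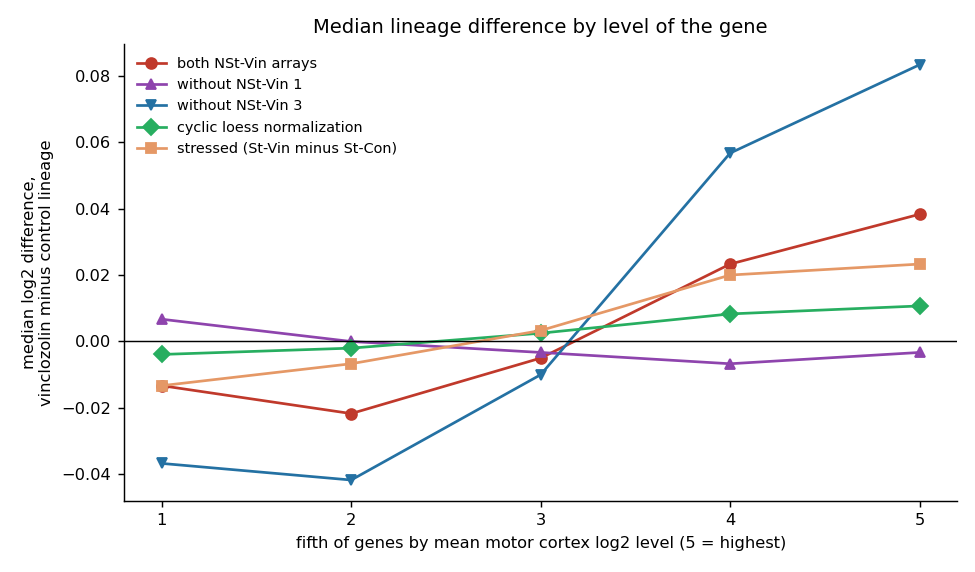
Median log2 difference between lineages (vertical axis) against level quintile (horizontal axis, 5 is the highest). With both NSt-Vin arrays the line runs from -0.013 to 0.038. It is near 0 without NSt-Vin 1 and steeper without NSt-Vin 3 (up to 0.083). The line under stress (St-Vin minus St-Con) runs from -0.013 to 0.023.

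Immediate early genes, transcribed soon after neuronal firing, were mostly higher in NSt-Vin, and no member passed. Of 32 measured, 25 were higher (78.1%, median 0.076), against 47.1% of genes in the quintile of the list's median level. Both NSt-Vin arrays lay above all NSt-Con arrays for 7 (21.9%, against 9.28% in that quintile), Npas4, Nr4a2, Dusp6, Ccn1, Gadd45g, Ier5 and Trib1. They lay below them for Fosl1, Egr4 and Atf3 (9.38%, against 11.4%). The list's median level of 7.47 lies near the upper edge of that quintile, 7.617, and in the next 60.7% of genes were higher. Members lie in other quintiles too: Dusp6, at a mean level of 8.79, lies in the highest, where 68.3% were higher. Of the effector genes 12 of 13 were higher (median 0.11), and of the transcription factors 13 of 19 (median 0.067). Under stress 23 of 32 were higher, with a median of 0.048, against 50.8% of genes in the quintile of the list's median level. Without St-Vin 2 it was 18 of 32 and 0.013.

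Single early genes differed between dyads as well. Dusp6, a phosphatase that switches off ERK, had 9.04 and 8.92 in NSt-Vin, against 8.74, 8.84 and 8.69 in NSt-Con (0.22 ± 0.076), and Ier5 differed by 0.17 ± 0.076. Fos had 7.34 and 7.70 in NSt-Vin, against 7.08, 7.23 and 7.60 in NSt-Con, and Arc, an activity-regulated synaptic protein, 9.89 and 10.16 in NSt-Vin, against 9.87, 9.78 and 10.15 in NSt-Con. For Npas4, Fos, Egr1 and Arc the dyad group 3 pool was the highest of each lineage, so that Fos, Egr1 and Arc overlapped between groups (0.22 ± 0.18, 0.14 ± 0.12 and 0.092 ± 0.15). Without NSt-Vin 3 these differences were 0.037 for Fos, 0.027 for Egr1 and -0.043 for Arc. The list median stayed between 0.058 and 0.093 over the alternatives.

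Genes of synaptic transmission were mostly higher in NSt-Vin, as were highly expressed genes as a whole. Of 23 genes of synaptic vesicle release 21 were higher (91.3%, median 0.097), against 68.3% in the highest quintile, and 5 were apart (21.7%, against 11.2%): Cplx1, Cplx2, Rab3a, Syn3 and Sv2a. Cplx1, a complexin that clamps vesicle fusion, had 10.54 and 10.50 in NSt-Vin, against 10.37, 10.27 and 10.41 in NSt-Con (0.17 ± 0.079). Rab3a, a vesicle GTPase, differed by 0.19 ± 0.092. The median was 0.057 without NSt-Vin 1. Under stress 8 of 23 were higher, with a median of -0.020, against 62.9% and 0.023 in the highest quintile. Without St-Vin 3 it was 15 of 23 with a median of 0.022.

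Of 17 genes of GABA signalling 14 were higher (82.4%, median 0.080), against 68.3% in the highest quintile, and 4 were apart (23.5%, against 11.2%). Slc32a1, the vesicular GABA transporter, had 8.59 and 8.69 in NSt-Vin, against 8.42, 8.43 and 8.40 in NSt-Con, a difference of 0.22 ± 0.087. The receptor subunit Gabrg1 differed by 0.14 ± 0.055. The GABA-synthesising enzyme Gad1 had 9.98 and 9.90 in NSt-Vin, against 9.88, 9.95 and 9.72 in NSt-Con, with overlap. The list median was 0.040 without NSt-Vin 1. Under stress 6 of 17 were higher, against 62.9% of genes in the highest quintile. The count ran between 3 without St-Con 1 and 9 without St-Con 3, and Slc32a1 was at -0.13. Glutamate signalling had 22 of 27 higher (81.5%, against 68.3%) but a median of 0.032 (0.0067 without NSt-Vin 1), and 1 gene apart (3.70%, against 11.2%).

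Voltage-gated sodium, calcium and HCN channels had 28 of 38 higher (73.7%, median 0.068, against 60.7% in their quintile), a median of 0.038 without NSt-Vin 1, and the T-type calcium channel Cacna1h at 0.16 ± 0.059. Potassium channels had 57 of 79 higher (72.2%, against 47.1%), with a median of 0.035 (0.020 without NSt-Con 1) and the BK auxiliary subunit Kcnmb2 at -0.20 ± 0.066. Their median level of 7.49 lies near the upper edge of that quintile, 7.617, and in the next 60.7% of genes were higher. Members ran from -1.12 to 0.24. Both NSt-Vin arrays lay above all NSt-Con arrays for 7 potassium channels (8.86%, against 9.28%) and below for 4 (5.06%, against 11.4%). In St-Vin 27 of 79 were higher than in St-Con, with a median of -0.027, against 50.8% in the quintile of their median level. Of 18 cholesterol synthesis genes 14 were higher (77.8%, against 60.7%), with a median of 0.063 that was -0.033 without NSt-Vin 1. Of 13 clock genes 9 were higher (69.2%, against 60.7%, median 0.070, which was 0.013 without NSt-Vin 1 and 0.035 with NSt-Con 2 left out). The clock genes Dbp and Nr1d1 differed by 0.18 ± 0.086 and 0.19 ± 0.093, and both by 0.10 without NSt-Con 1.

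Cytosolic ribosomal protein genes were higher in NSt-Vin more often than they were lower, with exceptions that stood as far apart. Of 70 measured 55 were higher (78.6%, median 0.063), against 68.3% in the highest quintile. For 24 both NSt-Vin arrays lay above all NSt-Con arrays (34.3%, against 11.2%), and for 7 below them (10.0%, against 3.8%). Rps9 had 9.78 and 9.61 in NSt-Vin, against 9.43, 9.47 and 9.49 in NSt-Con (0.23 ± 0.081, or 0.15 without NSt-Vin 1), and Rpl3 9.78 and 9.78 in NSt-Vin, against 9.62, 9.41 and 9.62 in NSt-Con (0.23 ± 0.084). Rpl22l1, a paralog of Rpl22, was lower, with 8.33 and 8.43 in NSt-Vin against 8.78, 8.71 and 8.51 in NSt-Con (-0.29 ± 0.080). After cyclic loess normalization 44 of 70 were higher and the median was 0.034. Under stress 40 of 70 were higher and the median was 0.0067, against 62.9% and 0.023 in the highest quintile.

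Mitochondrial lists did not share this. Of 67 mitochondrial ribosomal proteins 38 were higher (56.7%, against 60.7% in their quintile), with a median of 0.028 that was -0.020 without NSt-Vin 1, and with Mrpl52 at 0.18 ± 0.067 (0.093 without NSt-Vin 3) beside Mrpl1 at -0.23. Of 66 oxidative phosphorylation subunits 45 were higher (68.2%, against 68.3%), with Ndufa10 at -0.21 ± 0.092 (-0.11 without NSt-Vin 3) beside Ndufa1, and the median of 0.032 was -0.015 without NSt-Vin 1. Under stress 13 of 66 were higher, against 62.9% of genes in the highest quintile, and 37 of 66 without St-Vin 3. Proteasome subunits and heat shock genes had 21 of 37 (56.8%) and 9 of 23 (39.1%) higher, both against 68.3%.

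**Figure D4:**
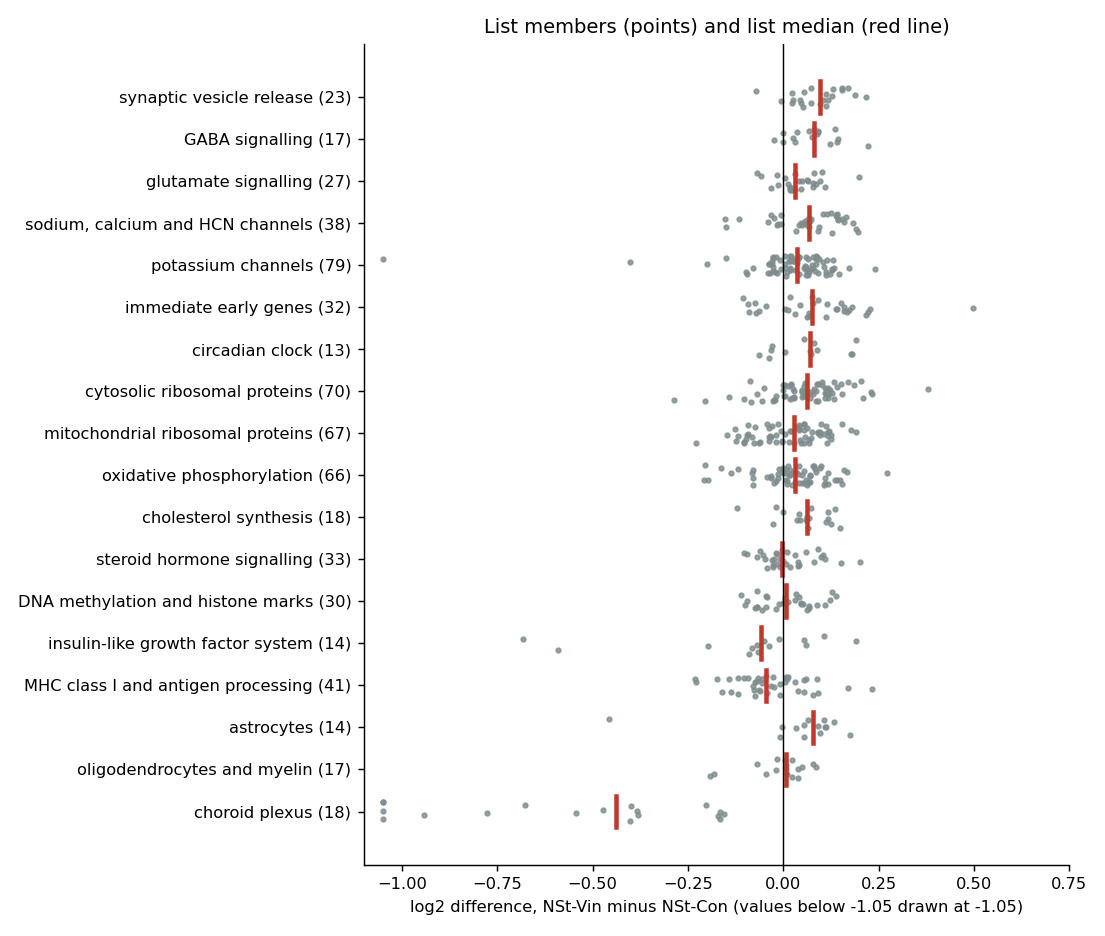
Log2 difference NSt-Vin minus NSt-Con (horizontal axis) of each member (points) and the median (red line) of 18 gene lists, with the number of measured members in brackets. Medians lie between -0.058 and 0.097, except choroid plexus at -0.44. The lowest values of choroid plexus (down to -2.12) and of potassium channels (down to -1.12) are drawn at the left edge.

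Steroid receptor genes differed by little between lineages. Esr1, the estrogen receptor alpha gene, had 5.31 and 5.33 in NSt-Vin, against 5.25, 5.39 and 5.33 in NSt-Con (-0.0033 ± 0.060). Nr3c1, the glucocorticoid receptor, had 9.53 and 9.48 in NSt-Vin, against 9.49, 9.56 and 9.52 in NSt-Con (-0.018 ± 0.072). Nr3c2, the mineralocorticoid receptor, differed by 0.10 ± 0.070. Of 33 steroid signalling genes 15 were higher (45.5%, against 60.7%), and the median was -0.0033.

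Both NSt-Vin arrays lay above all NSt-Con arrays for 3 genes of that list (9.09%, against 11.7%) and below them for 2 (6.06%, against 6.46%). Neither share was above that of the quintile, so the genes below are single values and no pattern of the list. Tsc22d3, a glucocorticoid-induced leucine zipper protein, had 8.39 and 8.42 in NSt-Vin, against 8.21, 8.31 and 8.24 in NSt-Con (0.15 ± 0.055), and -0.087 under stress. Fkbp5, a co-chaperone that lowers receptor affinity, had 7.86 and 7.78 in NSt-Vin, against 7.69, 7.48 and 7.69 in NSt-Con (0.20 ± 0.10, or 0.13 without NSt-Con 2), and -0.15 ± 0.091 under stress. Their interactions had unadjusted p-values of 0.00731 and 0.0241 and did not pass (limma). Crh, the stress-axis peptide, differed by 0.098 ± 0.066.

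Genes that write and read DNA methylation and histone marks showed no common direction, with 16 of 30 higher (53.3%, against 60.7%) and a median of 0.0083. Dnmt1, the maintenance methyltransferase, had 7.67 and 7.56 in NSt-Vin, against 7.45, 7.62 and 7.57 in NSt-Con (0.068 ± 0.066). Dnmt3a, a de novo methyltransferase, had 6.75 and 6.84 in NSt-Vin, against 6.75, 6.69 and 6.95 in NSt-Con (-0.0017 ± 0.088). Bdnf, a neurotrophin, differed by 0.032 ± 0.069, while Ntf4, another neurotrophin at low signal, had 5.89 and 5.88 in NSt-Vin, against 6.10, 6.08 and 6.10 in NSt-Con (-0.21 ± 0.054).

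MHC class I and antigen presentation genes leaned lower, with 14 of 41 above NSt-Con (34.1%, against 47.1%), 27 below and a median of -0.045 (-0.025 without NSt-Con 1). Both NSt-Vin arrays lay below all NSt-Con arrays for 8 (19.5%, against 11.4% in their quintile) and above them for 1 (2.44%, against 9.28%). RT1-M1-4 was at -0.23 ± 0.077 (-0.13 without NSt-Vin 1) and RT1-CE2 at 0.23 ± 0.093. RT1 genes are near-identical copies, so signal may be shared between them, and the list holds the class II gene RT1-Ba by its prefix.

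Choroid plexus markers were lower in NSt-Vin, beside 1 NSt-Con array in which they stood far above the rest. All 18 were lower, with a median of -0.44, while both NSt-Vin arrays lay below all NSt-Con arrays for 2 (11.1%, against 14.3%). Ttr, the thyroid hormone carrier that choroid plexus secretes, had 10.59 and 8.39 in NSt-Vin, against 15.02, 8.68 and 11.12 in NSt-Con (-2.12 ± 1.77, or -0.41 without NSt-Con 1). The mean of the 18 markers was 6.52 and 6.00 in NSt-Vin, against 8.05, 6.27 and 6.37 in NSt-Con, and the list's median difference was -0.065 without NSt-Con 1. In the other areas the list's median difference without stress was -0.025 in amygdala, -0.79 in CA1 and -0.51 in CA3. Single arrays of those areas were not left out, so whether 1 array carries a median there was not tested. Over all motor cortex arrays Ttr ran from 4.22 to 15.02, and how much choroid plexus a punch took in was not measured. In pooled tissue, fewer cells of a type and less RNA per cell cannot be told apart.

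The insulin-like growth factor list held genes that were high in the same array. Of 14 members 4 were higher (28.6%, against 47.1%) and 10 lower, with a median of -0.058 that was 0.0025 without NSt-Con 1. Igfbp2, named after its values were seen, had 6.55 and 6.26 in NSt-Vin, against 8.52, 6.23 and 6.24 in NSt-Con. Igfbp6 was highest in the same array but remained apart without it, at -0.59. Of the leptomeningeal markers 10 of 15 were higher in NSt-Vin (66.7%, against 38.3%), with a median of 0.062 that was 0.14 without NSt-Con 1. Of these markers 5 were apart above NSt-Con (33.3%, against 6.87%) and 1 below (6.67%, against 14.3%).

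**Figure D5:**
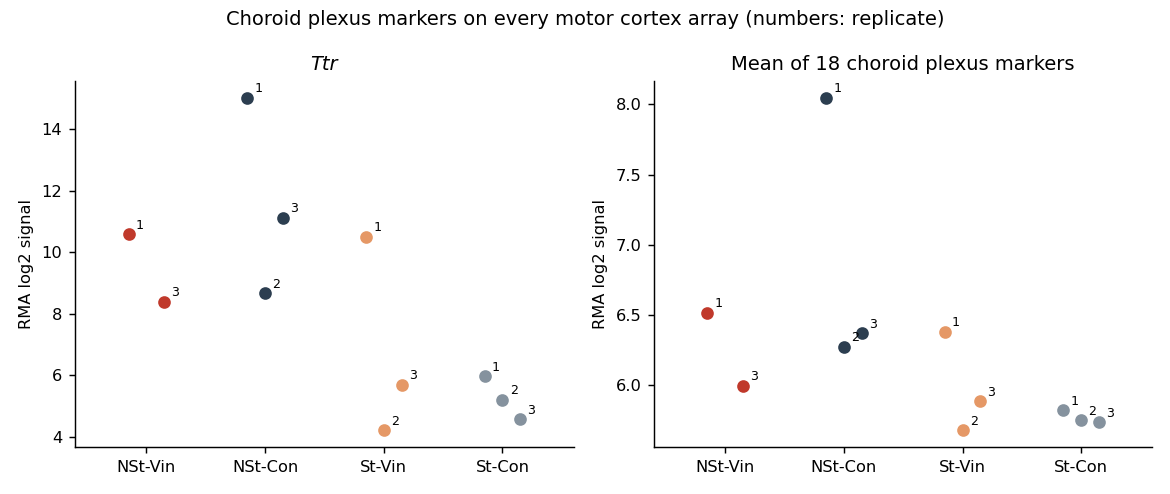
RMA log2 signal of Ttr (left) and the mean of 18 choroid plexus markers (right) on every motor cortex array by group; numbers are replicates. NSt-Con 1 stands highest in both, at 15.02 and 8.05.

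Medians of the other cell type lists were all within 0.078 of 0. Astrocyte markers had 11 of 14 higher (78.6%, against 68.3%; median 0.078, against 0.038 in the highest quintile, and 0.035 without NSt-Vin 1), with Agt, angiotensinogen, at 0.18 ± 0.080 and Gfap, the intermediate filament of reactive astrocytes, opposite at -0.46 ± 0.24. Gfap had 7.89 and 7.76 in NSt-Vin, against 8.51, 7.84 and 8.5 in NSt-Con, with overlap. Microglial markers had 10 of 16 higher (62.5%, against 47.1%; median 0.042, or 0 without NSt-Vin 1) and Csf1r, their growth factor receptor, at 0.19 ± 0.092 (0.10 without NSt-Vin 1). Myelin markers had 11 of 17 higher (64.7%, against 68.3%), with a median of 0.0083 that ran between -0.035 without NSt-Con 3 and 0.065 without NSt-Con 1. Under stress the mean of the 17 was 9.33, 9.02 and 8.80 in St-Vin, against 8.93, 8.94 and 8.87 in St-Con, so that the groups overlapped. All 17 were higher in St-Vin, with a median of 0.16, against 62.9% and 0.023 in the highest quintile. Without St-Vin 1 it was 8 of 17 with a median of -0.0083. Among interneuron markers 9 of 18 were higher (against 47.1% in their quintile), and Pvalb, the calcium-binding protein of fast-spiking cells, had 10.00 and 10.04 in NSt-Vin, against 9.94, 10.10 and 10.03 in NSt-Con. The proteoglycan Cspg4 of oligodendrocyte precursors had 6.85 and 6.83 in NSt-Vin, against 7.07, 7.01 and 7.08 in NSt-Con (-0.21 ± 0.063), and 2 of the 6 precursor markers were higher (33.3%, against 60.7%).

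Medians of the remaining lists lay within 0.057 of 0. Of 29 monoamine and muscarinic receptors 15 were higher (51.7%, against 47.1%; median 0.0017), with Chrm4, the M4 muscarinic receptor, at 7.98 and 8.07 in NSt-Vin, against 7.73, 7.67 and 7.95 in NSt-Con (0.24 ± 0.097). Of 12 stress and social neuropeptide genes 8 were higher (66.7%, against 47.1%; median 0.010), while vasopressin (Avp) had 8.09 and 8.17 in NSt-Vin, against 8.75, 8.26 and 8.24 in NSt-Con (-0.29 ± 0.16, or -0.12 without NSt-Con 1). Of 31 cadherins and protocadherins 18 were higher (58.1%, against 47.1%; median 0.015) and 5 were apart below NSt-Con (16.1%, against 11.4%). The neurotrophin list had 4 of 6 higher (66.7%, against 47.1%). Endothelial and pericyte markers had 8 of 15 higher (53.3%, against 47.1%; median 0.025). Ependymal markers had 6 of 9 higher (66.7%, against 41.4%; median 0.013) and blood cell markers 3 of 11 (27.3%, against 38.3%; median -0.018), with the haemoglobin gene Hbb at -0.19 ± 0.094. Neuron markers of cortical layers had 8 of 15 higher (53.3%, against 47.1%; median 0.033), hippocampal markers 7 of 12 (58.3%, against 38.3%; median 0.010) and striatal markers 5 of 15 (33.3%, against 38.3%; median -0.057). Leaving out 1 array moved several of these medians across 0: that of endothelium and pericytes was 0.10 without NSt-Vin 1 and -0.060 without NSt-Vin 3, and that of cortical layer neurons was -0.057 without NSt-Vin 1 and -0.045 without NSt-Con 3.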

How the data were processed

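The deposited table holds log2 signals of 1-colour Affymetrix whole-transcript rat arrays. Per the submitters' processing notes they were made with Partek and RMA, which subtracts background, gives all arrays 1 distribution of probe signals and combines the probes of a probe set; versions are not given in the sources used here. There is no read depth, so precision is limited by how many arrays there are.

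Of 27342 probe sets the platform annotation gives 15103 exactly 1 gene symbol, 317 several and 11922 none, and 15072 were matched by gene number to RefSeq of assembly GRCr8. Probe sets without 1 symbol were tested and not named. For genes with several probe sets the one with the highest mean level stands for the gene.

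An array equal to the mean of its group's other replicates on 100% of probe sets (tolerance 0.0051) was left out. Groups were fitted with limma 3.58.1 (R 4.3.3; lmFit, contrasts.fit, eBayes) on the 11 motor cortex arrays, 7 residual degrees of freedom, two-sided, with Benjamini-Hochberg adjustment over all probe sets and a threshold of 0.05. Medians and counts describe the 35 gene lists, and no list was tested. Named genes are the 12 smallest p-values each way at or above the median level, the 3 smallest each way at any level and for the interaction, up to 4 per list, and fixed genes. The members and lists were chosen with earlier results of these data known.

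The labels pair the pools, since cage mates carry the same dyad number. Deviations from group means of paired pools correlated at 0.398 and 0.269 in the non-stressed dyad groups 1 and 3, and at -0.051, -0.065 and 0.220 in the stressed dyad groups 4 to 6. The fit was tested on simulated data. Alternatives were scan day or replicate as a block, a filter at the 30th percentile, trend and robust settings, quantile and cyclic loess normalization, other sources of the spread, the omitted array kept, and each replicate left out.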

Additional observations from a re-analysis of the deposited data

How the results depend on the processing

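limma called 0 probe sets for NSt-Vin against NSt-Con with the low-level filter, scan day as a block, the replicate block, trend and robust settings, quantile or cyclic loess normalization, the spread of the 5 non-stressed arrays alone, and with any 1 of the 5 arrays left out. It called 2 with the spread taken from all areas, both of them probe sets of Rpl36 with identical values (0.45 ± 0.071, adjusted p = 0.00469). It called 1 with NSt-Vin replicate 2 kept, Or6c219 (0.75 ± 0.082, adjusted p = 0.0178; 0.145 without that array, which adds no measurement). The count at an unadjusted p of 0.05, 1554 with all 5 arrays, was 967 of 19145 with the low-level filter, 1385 with the replicate block, and 2980 with NSt-Vin replicate 2 kept. Leaving out 1 array gave 866 (without NSt-Vin 1) to 1775 (without NSt-Vin 3). Scan day as a block equals the fit without NSt-Vin 3, because the other arrays of day 2 are all stressed, and it too gave 1775. The replicate block, a fit on 2 non-stressed pairs, changed no call. The interaction called 0 in each alternative run. Rpl36, through those 2 probe sets, and Or6c219 were the named genes whose call changed. The median of striatal markers was 0.035 with the low-level filter, which leaves fewer members. Leaving out each stressed array, an alternative added after seeing the data, changed the counts under stress as given beside them. With 2 and 3 arrays, differences near the median SE of 0.077 lay within their error.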
